A study of Mus musculus with 28 samples.

Results

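The question was whether angiotensin II (Ang II) was followed by a different expression profile in splenic dendritic cells that lack NOX2 than in those that have it. That quantity is the genotype by Ang II interaction: the difference between Ang II and vehicle in NOX2 knockout cells minus the same difference in wild-type cells. It was measured on 18 of the 28 one-colour Affymetrix mouse arrays of the series, chosen by their labels alone. The other arrays carried wild-type cells given a further drug with Ang II and were not used here. The 18 arrays held 3 of knockout cells with vehicle, 4 of knockout cells with Ang II, 7 of wild-type cells with vehicle and 4 of wild-type cells with Ang II. A positive interaction means that Ang II minus vehicle was higher in the knockout than in the wild type, on a log2 scale where 1 is a 2-fold difference.

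All mice were 3 months old. The wild type was C57BL6/J, and the other genotype was the GP91 Phox (NOX2) knockout, whose background strain is not given in the labels. Titles of the knockout arrays wrote Ang I where their descriptions wrote Ang II, and the descriptions were followed. Whether mice or isolated cells received Ang II was not settled by the labels. The sources used here do not give the dose, the duration, the kind of deletion, the sort of the cells or any pooling of animals. The labels called the arrays biological replicates without naming the animals, so p-values measure the spread between these arrays.

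NOX2, encoded by Cybb and also called gp91phox, is the electron-carrying, catalytic part of the NADPH oxidase of phagocytes. With its membrane partner p22phox (Cyba) and cytosolic subunits such as p47phox (Ncf1) and p40phox (Ncf4) it passes electrons from NADPH to oxygen and makes superoxide. Ang II, the effector peptide of the renin-angiotensin system, is known to activate this enzyme through its type 1 receptor, and oxidants from dendritic cells have been linked to antigen presentation in hypertension. Genes whose response to Ang II needs NOX2 would have an interaction other than 0, while genes that merely differ between genotypes would not.

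Cybb separated the genotypes on 17 of the 18 arrays. On a log2 scale the 7 knockout arrays read 6.41 to 7.18. Of the 11 wild-type arrays, 10 read 8.35 to 9.57 and wild-type vehicle replicate 2 read 6.34. That array went against its label for Cybb but not for the vesicle fusion gene Stx8, which read 6.61 there and 3.02 to 3.84 in the knockout. Its interquartile range over probe sets was also the narrowest at 1.92, against 2.43 to 3.03 on the others. It is called the array labelled WT vehicle 2, and values without it are given beside the results whose sign or size it moves. A principal component of 998 probe sets without a name, the leading one with 30.2% of their variance, also split the arrays into set 1 and set 2. Set 1 held wild-type Ang II replicates 1 and 2, vehicle replicates 1 to 3 of the wild type and the 7 knockout arrays, and set 2 held wild-type arrays alone. The labels name no batch behind these sets. Dendritic cell markers were present in every group, with group means of 7.84 to 8.09 for Flt3 and 8.16 to 8.34 for Itgax. The B cell marker Ms4a1 reached group means of 8.34 to 8.96, so the cells were not free of other types. In such bulk samples, fewer cells of a type and less RNA per cell cannot be told apart.

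No gene passed the test of the interaction. Of 10452 genes tested with limma, 0 (0%) had a Benjamini-Hochberg adjusted p below 0.05, and the lowest adjusted p was 0.999991. At an unadjusted p below 0.05 there were 140 genes (1.34%), of which 80 were positive (0.765%) and 60 negative (0.574%). By chance alone a fraction of about 0.05 of tested genes would fall below 0.05, and 1.34% lay under that fraction. The 140 genes are therefore no sign of an effect. The sign was above 0 for 5025 genes (48.1%) and below 0 for 5427 (51.9%). The median interaction was -0.01, with quartiles of -0.19 and 0.16, and 39 genes lay beyond 1 in either direction. Genes therefore centred on equal differences in both genotypes, with a wide scatter around them.

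The precision of the contrast limits what these counts show. The median standard error of an interaction was 0.351, so the 95% interval reached 0.73 on either side for the median gene. For 6165 genes (59.0%) the whole interval lay between -1 and 1, so a difference of 2-fold or more between the genotypes lay outside it. For the other genes the interval reached beyond 1 in at least 1 direction, so a difference of that size lay within it. Without the array labelled WT vehicle 2, 0 genes (0%) were called again by limma, with a lowest adjusted p of 0.999314. Unadjusted p-values below 0.05 were then found for 350 genes (3.35%), 133 of which were among the 140, all in the same direction. The 3.35% also lay under the fraction of 0.05 given by chance. The median standard error was 0.294 and the share of interactions above 0 was 60.5%, with a median of 0.07.

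The array sets touch the contrast in the wild type, since knockout arrays were all in set 1. Within set 1 limma called 0 genes, with a lowest adjusted p of 0.932, and 360 of 10452 genes had an unadjusted p below 0.05. There, 71 of them were among the 140 genes of the full contrast, with the same direction. Without the array labelled WT vehicle 2, set 1 gave 0 calls, 441 of 10452 genes at that unadjusted level and a lowest adjusted p of 0.711. Across genes, the Ang II differences of wild type and knockout had a Pearson correlation of 0.05 with all arrays and -0.02 within set 1. This is a description over genes, which are not independent replicates, and the 2 differences share no array.

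**Figure D1:**
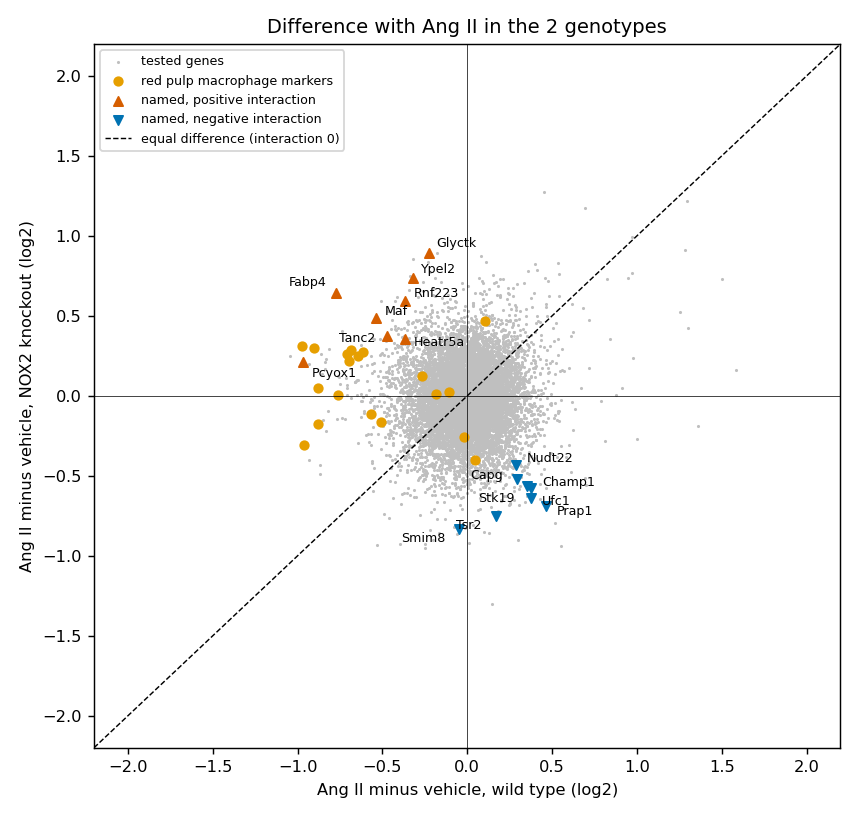
Each point is 1 of the 10452 tested genes, with the Ang II minus vehicle difference in wild-type cells on the horizontal axis and in knockout cells on the vertical axis, both log2. Triangles mark 16 named genes, the 8 with the smallest p of each sign among genes that were not left unnamed. Orange points mark the 19 red pulp macrophage markers, and the dashed line an interaction of 0. The SD of the difference over genes was 0.191 in the wild type and 0.225 in the knockout, and 17 of the 19 markers lie above the line.

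The oxidase genes came first among the named genes, whatever their test gave. Cybb had an interaction of -0.14 (SE 0.66), but 0.26 without the array labelled WT vehicle 2 and 0.0264 without wild-type Ang II replicate 4, so its sign rested on single arrays. In the knockout, its vehicle levels were 7.06, 6.93 and 6.46 and its Ang II levels 6.55, 7.18, 6.41 and 6.69, which overlap. Cyba had an interaction of -0.43 (SE 0.56), and -0.13 without that array. Ncf1 had an interaction of -0.17 (SE 0.31), and -0.06 without it. Of the 9 tested genes of the NADPH oxidase list, 8 lay below 0 and 1, the organizer Noxo1, above it, with a median of -0.14. Without that array 5 lay below 0 and the median was -0.01, against a median of 0.07 over all genes. Of the list's 16 genes, 7 were not tested. Group means of Noxo1, 4.56 to 4.87, all lay below 5, the log2 level used to filter genes for testing.

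The interval of the oxidase genes was wide in both directions. For Cybb it ran from -1.51 to 1.24, and for Cyba from -1.60 to 0.74. On the array labelled WT vehicle 2 the level of Cyba was 6.29, against a median of 8.48 in its group.

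Antioxidant genes answer to the transcription factor Nrf2 (Nfe2l2), which oxidants release from its inhibitor Keap1. The heme oxygenase Hmox1, one of its targets and also a gene of macrophages that clear red cells, had knockout vehicle levels of 11.07, 9.61 and 9.74 and knockout Ang II levels of 9.85, 10.38, 9.99 and 11.36. Its wild-type Ang II levels were 10.16, 9.53, 9.59 and 10.32, and wild-type vehicle ran from 9.61 over a median of 10.68 to 11.14. Both pairs of groups overlap. The interaction of Hmox1 was 0.89 (SE 0.50, unadjusted p = 0.0905 and adjusted p = 0.999991, limma), and 1.05 without the array labelled WT vehicle 2 (unadjusted p = 0.0306). Nfe2l2 itself had an interaction of 0.09 (SE 0.37), and 0.22 without that array. Of the 18 tested genes of the antioxidant list 9 lay above and 9 below 0, with a median of 0.02. Without that array 13 lay above 0 and the median was 0.12. The glutathione reductase Gsr was next to Hmox1 at 0.81, and the superoxide dismutase Sod2 lay at -0.28. Group means of Sod2, 4.11 to 4.41, all lay below the filter level of 5.

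The genes of dendritic cell activation gave small interactions with wide intervals. The cytokine gene Il1b had an interaction of 0.16 (SE 0.64), and 0.38 without the array labelled WT vehicle 2. In the knockout its vehicle levels were 7.81, 7.89 and 7.62, and its Ang II levels 7.09, 7.65, 7.01 and 7.73. In the wild type Ang II levels were 8.79, 7.14, 7.56 and 7.09, and vehicle ran from 6.83 over 8.60 to 9.19. The Ang II difference of Il1b was thus -0.40 in the knockout and -0.56 in the wild type, lower in both, with overlapping groups. The cytokine Tnf had an interaction of -0.22 (SE 0.35), and -0.11 without that array. The costimulatory ligands Cd80 and Cd86, which T cells read through CD28, had interactions of -0.01 (SE 0.56) and -0.13 (SE 0.54). Without that array Cd80 stood at 0.31, with its sign turned, and Cd86 at -0.0021.

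The lists behind those genes stayed near the median of all genes. In the inflammatory and NF-kB list 11 of 20 tested genes lay above 0 with a median of 0.14, led by the inflammasome cytokine Il18 at 0.91. In the costimulation list 10 of 13 lay below 0 with a median of -0.13. For MHC class II genes, which load and present peptide to CD4+ T cells, 9 of 12 lay below 0 with a median of -0.19, and MHC class I genes had a median of -0.05. The chemokine list had a median of 0.07, the interferon-stimulated list 0.04 and the list of cytokines that polarize T cells 0.04. The antiviral enzyme Oas3 of the interferon list stood at 0.74 (unadjusted p = 0.0302). Without the array labelled WT vehicle 2 the medians were 0.26 for the inflammatory list, -0.0021 for costimulation, -0.10 for MHC class II, 0.15 for MHC class I, 0.14 for chemokines, 0.19 for interferon-stimulated genes and 0.08 for the polarizing cytokines. MHC class I thus changed sign, against a median of 0.07 over all genes. Il18 then stood at 1.22 and the lipid mediator hydrolase Pla2g7 at 1.09. Within set 1, where the median over all genes was -0.16, the inflammatory median was -0.29, costimulation -0.38, MHC class II -0.38, MHC class I -0.23 and interferon-stimulated genes -0.11. Limma called 0 genes in every list.

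Stress and housekeeping lists were similar in size. The heat shock list had a median of -0.11, and its chaperone Hspa1a, whose probes may also read its near-identical copy Hspa1b, was at -1.07 (unadjusted p = 0.0169). The unfolded protein response list had a median of -0.05 and the immediate early list 0.09. Without the array labelled WT vehicle 2 these medians were 0.12, 0.14 and 0.25, and within set 1 they were -0.40, -0.38 and -0.39, so each turned sign with the arrays used. In oxidative phosphorylation 23 of 30 tested genes lay below 0 with a median of -0.22, with cytochrome c (Cycs) at -0.98 (unadjusted p = 0.0308). That median was -0.04 without that array. Cytosolic ribosomal protein genes lay below 0 in 20 of 22 cases with a median of -0.15, and -0.10 without it. Cell cycle genes had a median interaction of 0.23, but -0.04 without knockout Ang II replicate 4. The mitotic checkpoint kinase Bub1 of this list was at 1.02 (unadjusted p = 0.0159). Its group means, 3.59 to 4.28, all lay below the filter level of 5.

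Pseudogenes, predicted genes, small RNAs and multigene families were left unnamed. Of the remaining genes, the 8 with the smallest p among positive interactions were Fabp4, Glyctk, Rnf223, Maf, Tanc2, Heatr5a, Pcyox1 and Ypel2. Their p-values chose them, so their separation is a description and no support for an effect. The share of all tested genes whose groups separate fully was not counted. Fabp4, which encodes a fatty acid-binding protein of adipocytes and macrophages, was first. Its knockout vehicle levels were 6.47, 6.05 and 5.24, and its knockout Ang II levels 6.63, 6.03, 6.64 and 6.94. Its wild-type Ang II levels were 5.48, 4.86, 4.85 and 5.25, and wild-type vehicle ran from 5.42 over a median of 5.84 to 6.32. Knockout groups overlapped, and wild-type Ang II was below the wild-type vehicle range on 3 of 4 arrays. The difference was 0.64 in the knockout and -0.77 in the wild type, which gives an interaction of 1.41 (SE 0.37, 95% interval 0.65 to 2.17, unadjusted p = 0.000922, adjusted p = 0.999991, limma). It was 1.44 without the array labelled WT vehicle 2 and 1.36 within set 1.

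Maf encodes c-Maf, a transcription factor of macrophages and helper T cells. Its knockout vehicle levels were 5.89, 5.83 and 5.98, and all 4 Ang II levels, 6.35, 6.35, 6.25 and 6.59, lay above them. Its wild-type Ang II levels were 6.32, 5.71, 5.89 and 6.02 against a vehicle range of 5.89 to 7.17. The interaction of Maf was 1.02 (SE 0.33), and 0.72 within set 1. Pcyox1 encodes prenylcysteine oxidase, an enzyme that releases hydrogen peroxide as it breaks down prenylated cysteine. Its wild-type Ang II levels were 5.53, 4.20, 4.96 and 5.12 against a vehicle range of 5.53 to 6.56, while its knockout levels overlapped. The interaction of Pcyox1 was 1.18 (SE 0.39).

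Glyctk, Rnf223, Tanc2 and Ypel2 lay close to the level of 5 that a gene had to pass on 3 arrays. The glycerate kinase Glyctk had knockout vehicle levels of 4.29, 4.26 and 4.03 and knockout Ang II levels of 5.31, 4.77, 5.17 and 5.11, with an interaction of 1.12 (SE 0.32). The RING finger gene Rnf223 lay between 4.66 and 5.83 on every array used, with an interaction of 0.96. The Yippee family gene Ypel2 (interaction 1.06) and the HEAT repeat gene Heatr5a (0.72) had every knockout Ang II array above every knockout vehicle array. In Heatr5a every wild-type Ang II array also lay below the wild-type vehicle arrays, as it did in the scaffold gene Tanc2 (0.84).

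By the same rule, the 8 genes with the smallest p among negative interactions were Prap1, Tsr2, Ufc1, Stk19, Smim8, Champ1, Nudt22 and Capg. Their p-values chose them too, so their separation is also a description and no support for an effect. Prap1, a proline-rich secreted protein gene, had knockout vehicle levels of 4.56, 4.73 and 5.41 and knockout Ang II levels of 4.59, 4.35, 4.12 and 3.79. Its wild-type Ang II levels were 5.55, 4.93, 4.82 and 4.64 against vehicle levels of 4.14 to 4.79. Of the arrays used here, Prap1 exceeded the filter level of 5 only on knockout vehicle replicate 3 and wild-type Ang II replicate 1. It therefore passed the filter only with arrays outside the contrast. Its groups overlapped in both genotypes, and its interaction was -1.15 (SE 0.33, unadjusted p = 0.00208, limma). Tsr2, a ribosome maturation factor, had knockout vehicle levels of 5.41, 5.52 and 5.24, all above its knockout Ang II levels of 4.64, 4.77, 4.81 and 4.31. Its wild-type groups overlapped, at 4.90 to 5.10 with Ang II and 4.30 to 5.15 with vehicle. The interaction of Tsr2 was -0.92 (SE 0.27).

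Ufc1, the conjugating enzyme that attaches the ubiquitin-like protein UFM1, had knockout Ang II levels of 5.43, 5.62, 6.28 and 5.77 against vehicle levels of 6.49, 6.59 and 6.15. The interaction of Ufc1 was -1.01 (SE 0.31). Capg, which caps actin filaments in macrophages and dendritic cells, had knockout Ang II levels of 5.88, 5.51, 6.04 and 5.54, all below the vehicle levels of 6.42, 6.20 and 6.16. Its wild-type levels overlapped, and its interaction was -0.81 (SE 0.30). Smim8 (-0.78) and Champ1 (-0.95), a chromosome alignment gene, also had every knockout Ang II array below the knockout vehicle arrays. Smim8 reached at most 4.93 on the arrays used here, below the filter level of 5, so it passed only through arrays outside the contrast. Tsr2 and Nudt22 also lay close to that level. Stk19 (-0.92) and Nudt22 (-0.72) overlapped in both genotypes.

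Among the 140 genes the knockout and wild-type differences mostly had opposite signs. Of the 80 positive genes 79 were higher with Ang II in the knockout and lower in the wild type, and of the 60 negative genes 57 were the reverse. Choosing genes by a large interaction favours such opposite signs, so the counts describe the selection, with all 18 arrays in use. The positive interactions ran from 0.50 to 1.41 and the negative ones from -0.49 to -1.49.

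**Figure D2:**
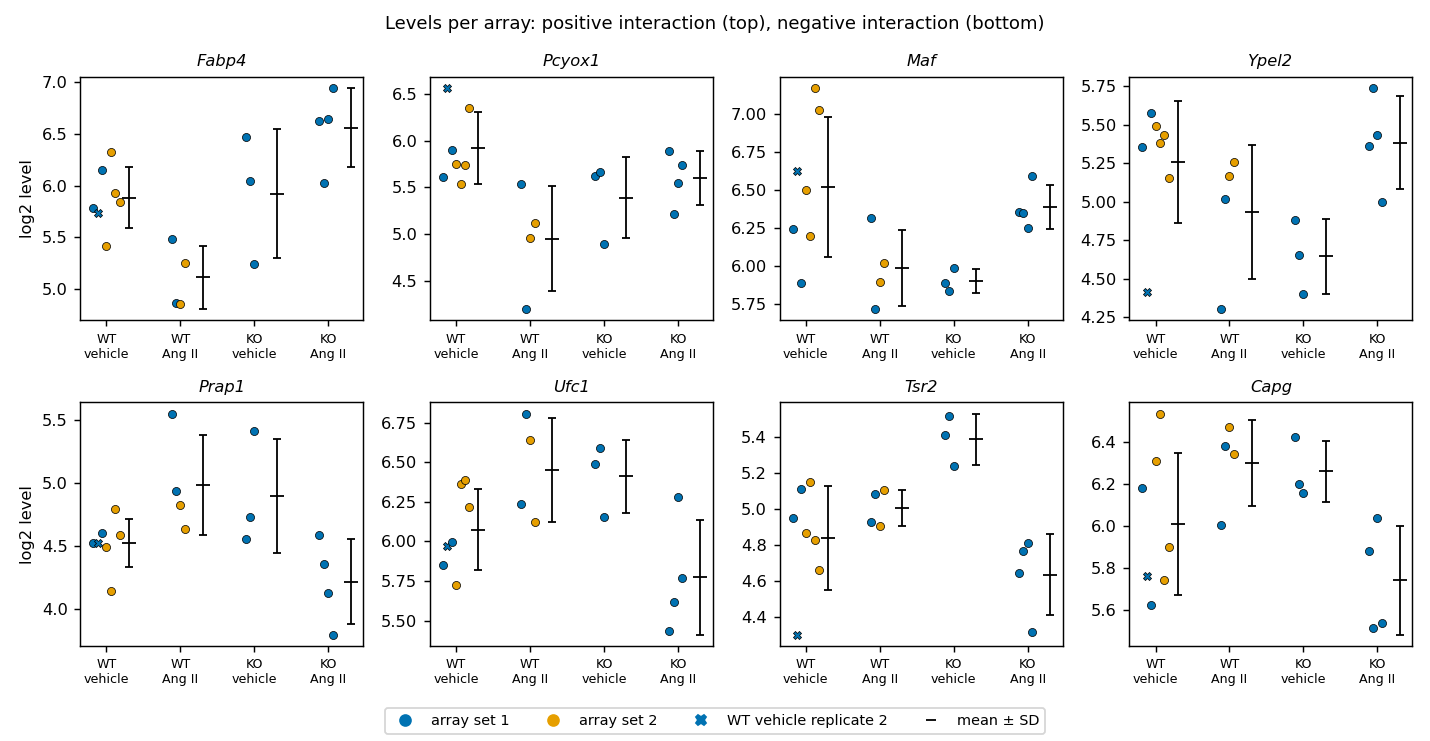
Log2 level of 8 genes on each of the 18 arrays, by group, with positive interactions in the upper row and negative ones in the lower; points are arrays, coloured by array set, the cross is the array labelled WT vehicle 2, and the bar is the mean ± SD. Maf and Ypel2 with Ang II lie above vehicle on every knockout array, and Tsr2 and Capg lie below it. The genes were chosen by their p-values.

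**Figure D3:**
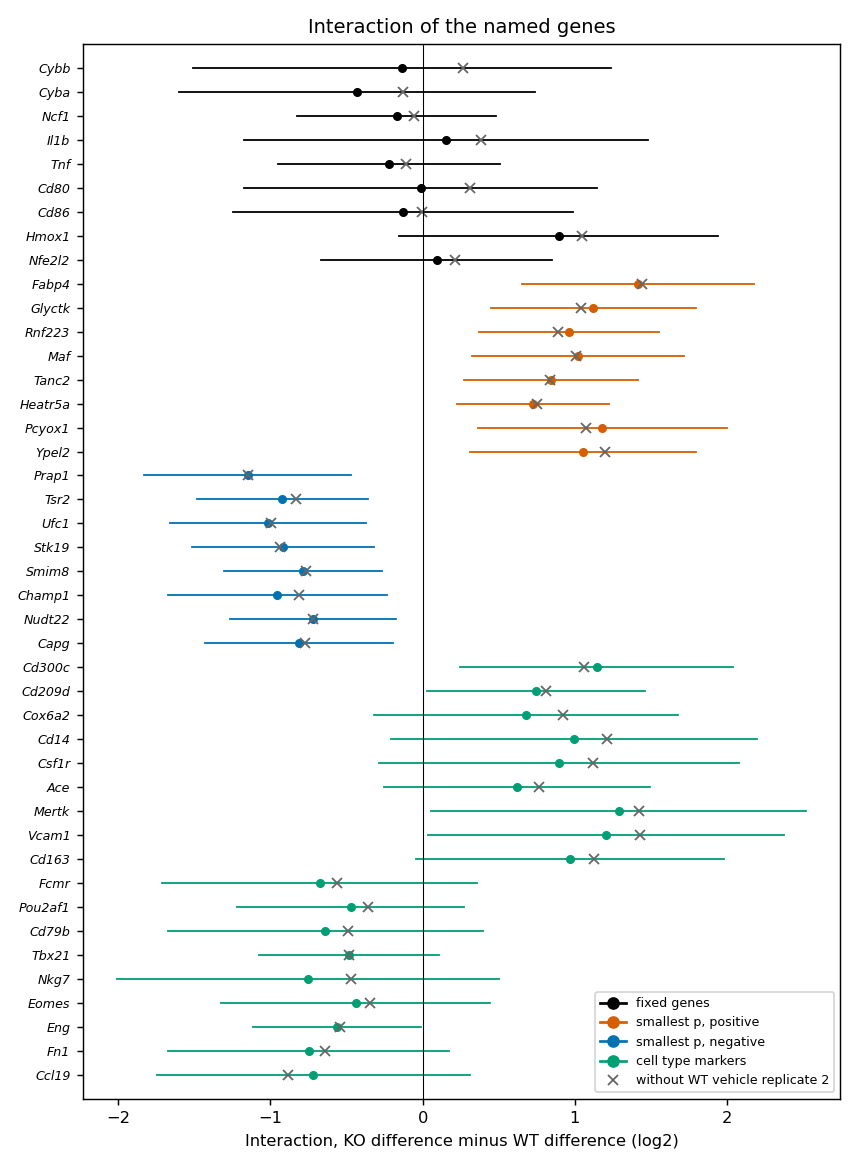
Interaction (log2) of the 43 named genes as a point with its 95% interval from limma, with the value without the array labelled WT vehicle 2 as a grey cross. Intervals of the 8 genes of each sign with the smallest p exclude 0 by that choice, while those of the oxidase and activation genes span it. Among the cell type markers, picked by p within their lists, only Cd300c, Cd209d, Mertk, Vcam1 and Eng have intervals that exclude 0.

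With all 18 arrays, the gene lists that stood furthest from 0 were markers of cell types other than conventional dendritic cells. Within set 1 the type 2 dendritic cell list was furthest from 0, at -0.50. From the median of -0.16 over all genes there, the neutrophil (0.46), erythroid (0.41) and type 1 dendritic cell (0.19) lists lay further. Of 32 lists with at least 5 tested genes, 6 had, with all 18 arrays, a median more than 0.3 from that of all tested genes. They were red pulp macrophage, monocyte, plasmacytoid dendritic cell, B cell, natural killer cell, and stroma and endothelium. With 18 arrays the lists of the dendritic cells themselves lay closer, with a median of 0.02 for type 1 cells, which cross-present antigen, -0.15 for type 2 cells, which prime CD4+ T cells, and -0.19 for genes shared by both. Without the array labelled WT vehicle 2 these medians were 0.04, 0.02 and -0.07. Within set 1 they were 0.19, -0.50 and -0.37, with 1 of 14 type 2 genes above 0, and within set 1 without that array 0.04, -0.31 and -0.18. The lectin Clec10a, a marker of type 2 cells, stood apart from its list at 1.29 (SE 0.47, unadjusted p = 0.0114, limma). Its group means, 3.19 to 4.35, all lay below the filter level of 5.

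Red pulp macrophages take up aged red cells and recycle their iron, and their list had the highest median. Of its 19 tested genes 17 lay above 0, with a median of 0.70 and a range of -0.45 to 1.29, against 48.1% above 0 over all genes. The median difference with Ang II was -0.64 in the wild type and 0.05 in the knockout. The mean level of the list was 6.78, 6.58, 6.68 and 7.47 on the wild-type Ang II arrays, and ran from 6.24 over a median of 7.55 to 8.30 on the wild-type vehicle arrays. In the knockout it was 7.68, 6.87 and 6.67 with vehicle and 6.75, 7.02, 6.98 and 7.79 with Ang II. All groups overlap. The wild-type vehicle arrays of set 2, at 7.55, 7.77, 7.97 and 8.30, were the highest of that group. Within set 1, the list's median interaction was 0.17, and 0.47 without the array labelled WT vehicle 2. Leaving out 1 array moved it from 0.38, without knockout Ang II replicate 4, to 1.05, without knockout vehicle replicate 1, and it was 0.90 without the array labelled WT vehicle 2. With the array set as a block over all 18 arrays it was 0.625.

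The members of that list differed in size. Mertk, a receptor that binds dying cells, had wild-type Ang II levels of 6.10, 5.84, 5.60 and 6.62 and wild-type vehicle levels of 6.07 to 8.37 with a median of 7.01. Its knockout levels were 7.38, 6.54 and 6.56 with vehicle and 6.38, 7.27, 7.01 and 7.90 with Ang II. Both pairs overlap, and its interaction was 1.29 (SE 0.59, unadjusted p = 0.0414). The adhesion molecule Vcam1, by which red pulp macrophages hold other cells, had an interaction of 1.20 (SE 0.56, unadjusted p = 0.0445). The haemoglobin scavenger receptor Cd163 followed at 0.97 (SE 0.49) and the iron exporter Slc40a1 at 0.93. The mannose receptor Mrc1 lay at 0.92, the transcription factor Spic at 0.39 and the scavenger receptor Marco at -0.45. The complement genes did not share a sign, with C1qa at 0.65, C1qc at 0.35 and C1qb at -0.24. Within set 1 Mertk was at 0.61, Vcam1 at 0.79, Cd163 at 0.56, Slc40a1 at 0.10, Mrc1 at 0.17 and Spic at -0.27.

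Promoter sequence of 4 of these genes is shown, since this list had the highest median and these members range from high to negative interaction. They were picked after their values were seen: Mertk and Cd163 from the rule for named genes, and C1qc and C1qb because their window holds a searched motif. The sequences are the 250 bases upstream of the start in NCBI RefSeq, build GRCm38.p6, written 5′ to 3′ on the strand of the gene, with motif matches in capitals. Mertk is at chr2:128698665-128698914 and Cd163 at chr6:124304401-124304650, both on the plus strand. C1qc is at chr4:136892915-136893164 and C1qb at chr4:136886201-136886450, both on the minus strand.
Mertk: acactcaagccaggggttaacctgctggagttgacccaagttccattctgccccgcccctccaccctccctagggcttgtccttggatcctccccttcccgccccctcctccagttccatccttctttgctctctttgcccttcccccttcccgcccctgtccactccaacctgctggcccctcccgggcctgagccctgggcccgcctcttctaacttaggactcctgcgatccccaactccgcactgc
Cd163: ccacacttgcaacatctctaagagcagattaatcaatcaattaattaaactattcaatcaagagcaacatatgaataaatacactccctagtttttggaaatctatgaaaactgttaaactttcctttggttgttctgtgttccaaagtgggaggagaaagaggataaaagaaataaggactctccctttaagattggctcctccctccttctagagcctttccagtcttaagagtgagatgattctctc
C1qc: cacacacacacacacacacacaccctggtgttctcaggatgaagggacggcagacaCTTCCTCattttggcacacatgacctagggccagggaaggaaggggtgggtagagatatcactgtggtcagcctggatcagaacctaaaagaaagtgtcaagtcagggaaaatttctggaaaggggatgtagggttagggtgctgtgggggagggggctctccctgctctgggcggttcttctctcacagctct
C1qb: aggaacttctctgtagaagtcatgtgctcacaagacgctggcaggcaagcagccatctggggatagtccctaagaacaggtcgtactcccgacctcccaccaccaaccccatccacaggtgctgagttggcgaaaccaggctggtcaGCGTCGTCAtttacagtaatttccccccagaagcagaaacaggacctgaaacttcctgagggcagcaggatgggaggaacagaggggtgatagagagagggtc

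Both strands were searched for 3 motifs: GAGGAAG, bound by the myeloid factor PU.1, TGANTCA, bound by AP-1, and TGACNNNGC, the core of the antioxidant response element bound by Nrf2. The letters of the AP-1 and antioxidant motifs can overlap. Among 32851 promoters of the same length, 10.6% held the PU.1 letters, 6.75% the AP-1 letters and 10.2% the antioxidant letters. Of the 19 list genes 11 had a promoter sequence here, and 5 of these held the PU.1 letters, namely Marco, Mrc1, Cd5l, C1qc and Axl. Hmox1 and Vcam1 were among the list genes without a sequence, so they were not searched. Of the genes searched, the AP-1 letters were found in Cd68 alone and the antioxidant letters in C1qb alone, at 103 to 95 bases before its start. In C1qc the PU.1 letters stood in reverse at 194 to 188 bases before the start. Mertk and Cd163 held none of the 3 motifs in this window.

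The monocyte list had a median of 0.49, with 10 of 13 tested genes above 0. The growth factor receptor Csf1r lay at 0.89 (SE 0.57), and the endotoxin co-receptor Cd14 at 0.99 (SE 0.58). Ace, which makes Ang II and also belongs to the renin-angiotensin list, lay at 0.62 (SE 0.42). Its wild-type Ang II levels were 6.86, 6.31, 5.60 and 6.13 against vehicle levels of 5.74 to 7.16. Its knockout Ang II levels were 7.35, 7.49, 7.56 and 8.32 against vehicle levels of 7.95, 7.18 and 7.25, so knockout arrays were higher than wild-type arrays with either treatment and Ang II overlapped vehicle in both genotypes. The renin-angiotensin list had only 5 of 17 genes tested, with a median of -0.14 and 0.05 without the array labelled WT vehicle 2. The monocyte median was 0.67 without that array, 0.22 without knockout Ang II replicate 4 and 0.81 without knockout vehicle replicate 1. Ms4a4c lay at -0.52, the integrin Itgam at -0.22 and the chemokine receptor Ccr2 at -0.02. Within set 1 the monocyte median was 0.10, with Csf1r at 0.10, Cd14 at 0.29 and Ace at 0.0163.

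Plasmacytoid dendritic cells are the main source of type I interferon among splenic cells. Their list had a median of 0.33, with 8 of 11 tested genes above 0, and 0.58 without the array labelled WT vehicle 2. Cd300c, an immunoreceptor, had wild-type Ang II levels of 5.77, 5.81, 6.96 and 6.31 against vehicle levels of 6.21 to 7.55. Its knockout Ang II levels were 6.54, 7.08, 6.99 and 7.29 against vehicle levels of 6.82, 6.40 and 6.48. These overlap, and its interaction was 1.14 (SE 0.43, unadjusted p = 0.0147). The lectin Cd209d lay at 0.74 (SE 0.34) and Cox6a2, a respiratory chain subunit, at 0.68 (SE 0.48). Cd209d had group means of 4.30 to 4.79, all below 5. Siglech, a defining surface lectin of these cells, lay at 0.53, and Tcf4, their lineage factor, at 0.14. The lineage factor Spib lay at -0.33, Ly6d at -0.30 and Pacsin1 at -0.38, on the other side of 0. Within set 1 the median was 0.03, with Cox6a2 at 0.16, Siglech at 0.05 and Tcf4 at -0.23.

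The B cell list was below 0 in all 16 tested genes with 18 arrays, against 51.9% of all genes, and its median was -0.41. The signalling subunits Cd79a and Cd79b lay at -0.51 and -0.64, the IgM Fc receptor Fcmr at -0.68 and the coactivator Pou2af1 at -0.47. Levels of Cd79b with vehicle in the knockout were 9.89, 10.26 and 10.11, and with Ang II 10.13, 9.01, 10.08 and 8.72. Knockout Ang II replicates 1 and 3 lay within the vehicle range, and replicates 2 and 4 below it. The array labelled WT vehicle 2 was lowest for this list, at a mean level of 6.79 against 8.09 to 8.64 on the rest of its group. Without it the median was -0.18 and 2 of 16 genes lay above 0. Within set 1 the median was -0.45, and -0.09 without that array.

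Natural killer cell genes had a median of -0.35, with 12 of 13 below 0. Nkg7, a granule membrane gene, had knockout vehicle levels of 7.47, 8.02 and 7.80, above all its knockout Ang II levels of 7.42, 7.44, 7.38 and 6.80. Its wild-type groups overlapped, and its interaction was -0.75 (SE 0.60). The T-box factors Tbx21 and Eomes lay at -0.48 and -0.44. The median was -0.13 without wild-type Ang II replicate 3, whose mean level of the list was 7.43 against 6.40 to 6.86 on the rest of its group. Without the array labelled WT vehicle 2 it was -0.22, and within set 1 -0.41.

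Stroma and endothelium had a median of -0.43, and -0.44 without the array labelled WT vehicle 2. With all arrays, 11 of 13 tested genes lay below 0, against 51.9% of all genes. The knockout arrays were low for this list whatever the treatment, at 4.95 to 5.21, while wild-type Ang II arrays read 6.26, 6.09, 6.00 and 5.58. Wild-type vehicle arrays ran from 4.91 to 6.14, with replicates 6 and 7 within or below the knockout range. Eng, an endothelial co-receptor of TGF-beta, lay at -0.56 (SE 0.27, unadjusted p = 0.0465, limma), and the matrix gene Fn1 at -0.75 (SE 0.44). The group means of Eng, 4.30 to 4.97, all lay below 5. Both knockout group means also lay below 5 for Fn1, Cxcl12, Bgn, Dcn, Acta2, Col1a1 and Col1a2. Over the list, the median Ang II difference was 0.375 in the wild type and -0.03 in the knockout. Whether low knockout levels limited the knockout difference was not tested. The T zone chemokine Ccl19 lay at -0.72 (SE 0.49). Within set 1 the median was -0.37.

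The other cell type lists were nearer 0 or turned on 1 array. Erythroid genes had median Ang II differences of 0.58 in the wild type and 0.56 in the knockout, and a median interaction of -0.08. Their mean level was 7.65 on knockout Ang II replicate 4 against 4.89 to 5.62 on the other knockout Ang II arrays. Without that array their median interaction was -0.64, and within set 1 it was 0.41. The neutrophil list had a median of 0.16, but -0.41 without knockout vehicle replicate 3 and 0.85 without knockout vehicle replicate 1, whose level was 8.15 against 6.45 and 6.11. The T cell, platelet and plasma cell lists had medians of -0.09, 0.03 and 0.12, and of 0.06, 0.03 and 0.20 without the array labelled WT vehicle 2. The part of other cells in the interactions of single genes was not tested.

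**Figure D4:**
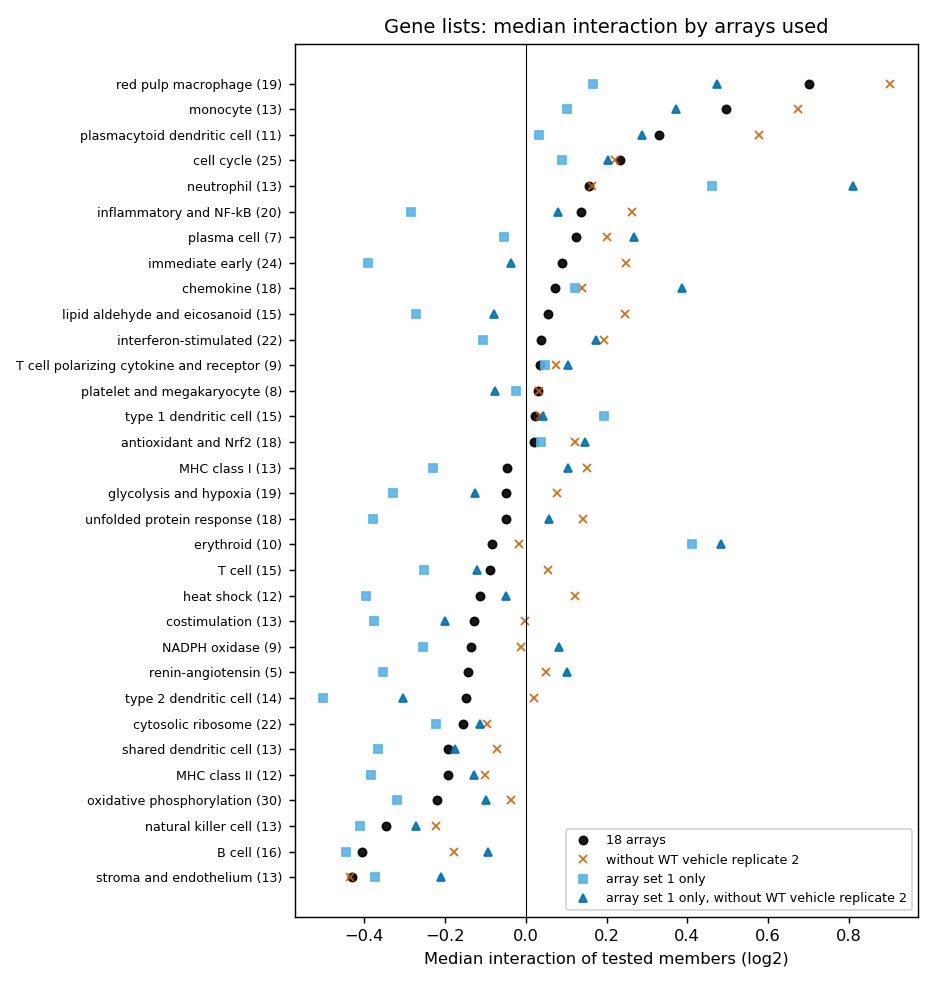
Median interaction (log2) of the tested genes in each of the 32 lists, with their number in brackets, over 18 arrays, without the array labelled WT vehicle 2, within array set 1, and within set 1 without that array. The red pulp macrophage median is the highest with 18 arrays, at 0.70, and is 0.17 within set 1. There the type 2 dendritic cell median of -0.50 is furthest from 0. The median over all genes within set 1 is -0.16, and the neutrophil median of 0.46 lies furthest from it.

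**Figure D5:**
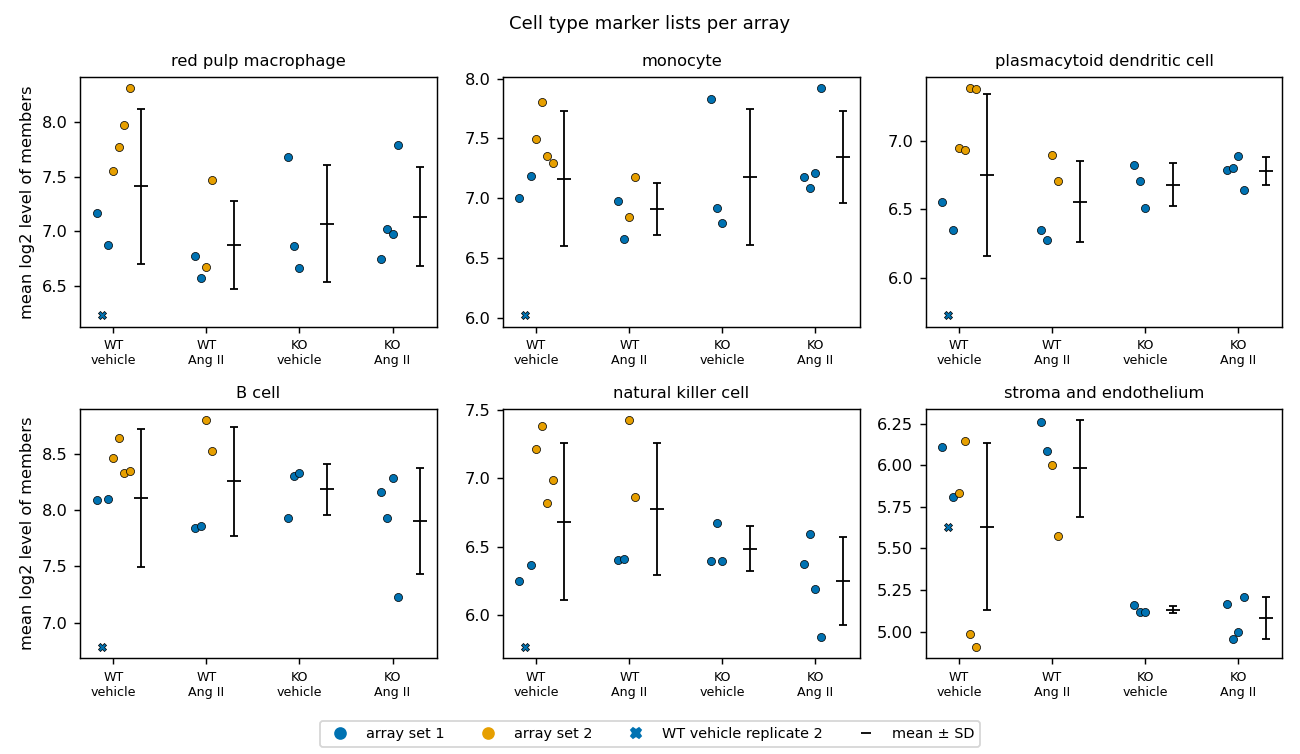
Mean log2 level of the tested genes of 6 cell type lists on each array, by group; points are arrays coloured by array set, the cross is the array labelled WT vehicle 2, and the bar is the mean ± SD. In the red pulp macrophage list the highest arrays are wild-type vehicle arrays of set 2, and in the stroma list all knockout arrays lie at or below 5.21.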

How the data were processed

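The authors deposited 1 log2 value per probe set and array, made by RMA and Partek 6.6 per the submitters' processing notes. The sources used here do not give the RMA version, background settings or probe annotation. No further normalization was applied. Of 35556 probe sets, 21789 carried exactly 1 symbol in the platform annotation, and 21698 of these matched RefSeq by Entrez identifier. Where a gene had several, the one with the highest mean was kept. A gene was tested if it exceeded 5 on 3 or more arrays of the whole series, which includes arrays outside the contrast. With the filter over the arrays of the contrast alone, 9977 genes were tested.

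The interaction was fitted with limma 3.58.1 in R 4.3.3 as 4 group means over 18 arrays, with eBayes, two-sided tests and Benjamini-Hochberg adjustment over 10452 genes. The script was tested on simulated data. Named genes were a fixed set of oxidase, cytokine, costimulation and antioxidant genes, the 8 smallest p-values of each sign (pseudogenes, predicted genes, small RNAs and multigene families left unnamed), and 3 members of each list whose median lay more than 0.3 from that of all genes. One gene of the fixed set is not reported here. Other genes named in the text were chosen after their values were seen. The members and lists were chosen with earlier results of these data known. Alternatives covered filters, normalization, array weights, blocks, array sets and leaving out each array. The number of arrays limits the precision.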

Additional observations from a re-analysis of the deposited data

Results flagged for a closer look

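In 147 groups of 4 to 10 arrays, formed by the named genes and the 6 lists, 12 had a highest or lowest array far from the others by Dixon's criterion, and chance flags about 1 in 20 groups. The array labelled WT vehicle 2 was that array in 5 groups, with a log2 level of 6.34 for Cybb, 3.79 for Cd80, 4.41 for Ypel2 and 5.67 for Cox6a2, and a mean level of 6.79 for the B cell list, each the lowest of its group. Knockout Ang II replicate 4 was lowest for Nkg7 at 6.80, highest for Fn1 at 5.19 and highest for the monocyte list at 7.92. Knockout Ang II replicate 2 was lowest for Tanc2 at 4.64. Wild-type Ang II replicate 1 was highest for Heatr5a at 6.04, and wild-type Ang II replicate 2 was highest for Tbx21 at 6.52. Wild-type vehicle replicate 5 was lowest for Stk19 at 4.77.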

How the results depend on the processing

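Under 34 other settings, 18 of which left out 1 array, limma called 0 genes, while genes at an unadjusted p below 0.05 ran from 16, with only genes above 7, to 685, with array weights and a lowest adjusted p of 0.627. Leaving out 1 array gave 102 to 350. With the replicate number as a replicate block, 0 genes were called and 462 of 10452 had an unadjusted p below 0.05. Replicates 5 to 7 existed in wild-type vehicle alone, so this block fitted each of them by itself and took them out of the contrast. The array labelled WT vehicle 2 stayed in. Same-numbered arrays had correlations of deviations from -0.35 to 0.37. These values cannot show whether the numbers pair the arrays, since differently numbered arrays were not compared. With array set as a block there were 0 calls, and 293 of 10452 genes had an unadjusted p below 0.05.

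Of the 43 named genes, 36 kept their sign in every setting. Those that did not were Cybb, Ncf1, Il1b, Tnf, Cd80, Cd86 and Nfe2l2, all of the fixed set. Of the tested genes of that set only Cyba and Hmox1 kept their sign. The other named genes were chosen from these data by p, which favours a stable sign. With array weights Cybb was 0.19, Ncf1 0.13, Il1b -0.0701, Cd80 0.37 and Cd86 0.24. With the replicate block Nfe2l2 was -0.20. Within set 1 Il1b was -0.26, and without the array labelled WT vehicle 2 there Cybb was 0.20 and Cd80 0.0120. Against the median interaction Cd80 was 0.0006. Leaving out 1 array moved Cybb from -0.31 to 0.26, Tnf from -0.50 to 0.10, Cd80 from -0.21 to 0.31, Cd86 from -0.34 to 0.11, Il1b from -0.0306 to 0.54 and Nfe2l2 from -0.0655 to 0.25. The cause was not tested. Of the lists, the plasmacytoid median was 0.93 with array weights and -0.14 with the replicate block, where the red pulp median was -0.08 and the stroma median -0.03. That block left wild-type vehicle replicates 5 to 7, all of set 2, out of the contrast.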
